A study of Mus musculus with 12 samples.

Results

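Transcribed ultraconserved elements were followed in regenerating mouse liver through the array probes that carry an ultraconserved element identifier, the letters uc followed by a number and a plus or minus sign. The array held 962 such probes, a plus and a minus probe for each of 481 elements. The sign was taken as the strand of the element that the probe reads, which the files do not state further. A probe was kept where the scanner software had called its spot well above background on at least 3 of the 12 arrays. This left 572 of 962 probes (59.5%), from 396 of 481 elements (82.3%). By the same rule 77.8% of the other noncoding probes and 88.3% of the protein-coding probes were kept. The rule used whether a probe was detected and not how it changed, but a probe that passed only through the arrays of 1 time point or 1 slide had to be brighter there. Counts and medians over the 572 probes are therefore descriptions.

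Ultraconserved elements are stretches of DNA that are identical between the human, mouse and rat genomes. Some overlap exons of genes for splicing factors and other RNA-binding proteins, where they take part in controlling how the messenger RNA is spliced, and others lie far from coding exons near genes for developmental transcription factors, where many act as enhancers. Many are also transcribed into noncoding RNA in a tissue-dependent way, on 1 strand or on both, and levels of several of these transcripts are altered in human cancers, liver cancer among them.

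The samples were livers of wild-type male C57BL/6 mice, 6 weeks old, taken 0, 1.5, 12 and 24 h after 2/3 partial hepatectomy, an operation that removes most of the liver and after which the cells of the remainder enter the cell cycle. Per the labels 3 mice were used at each time, and each time point has 3 arrays. Whether each array holds the RNA of 1 mouse is not stated, so p-values measure the spread between arrays. No sham-operated mice and no times of day are among the labels, so the operation, anaesthesia and hour of sampling cannot be told apart from regeneration. Total RNA of whole liver was labelled with 1 dye (Cy3), and fewer cells of a type and less RNA per cell cannot be told apart in such a sample.

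Values below are log2 of the processed spot signal, scaled to each array's 75th percentile, so that 0 marks a probe at that percentile. They compare 1 probe between arrays, and are not amounts that can be set against another probe. The 12 arrays lay on 4 slides, which divided the time points unevenly. Slide 1 held all 0 h arrays and 1.5 h replicate 1, slide 2 held 1.5 h replicates 2 and 3 with 12 h replicates 1 and 2, slide 3 held 12 h replicate 3 with 24 h replicates 1 and 3, and slide 4 held 24 h replicate 2 alone. No slide held arrays of both 0 h and 12 h. The 24 h replicate 2 array stood apart: its 75th percentile signal was 6018 against 428 to 584 on the other arrays, and its lowest correlation with an array of its own time point was 0.906 against 0.972 to 0.987 elsewhere. Its spread enters every contrast, since 1 model was fitted to all 12 arrays. Hepatocyte markers were bright at every time, with a summed linear level of 2070 to 2160 at 0 h and 861 to 1990 at 24 h, and 9 of 10 were well above background on all arrays. The summed level of 7 measured neutrophil markers was 1.56 to 2.12 at 0 h, 7.63 to 10.2 at 1.5 h, 29.8 to 37.1 at 12 h and 25 to 35.5 at 24 h. The brightest of them by far were S100a9 and S100a8. At 12 h 5 of the 7 passed as higher in limma, but not Mpo (1.15, adjusted p = 0.162) or Elane (0.29, adjusted p = 0.704). At 24 h the Kupffer cell and macrophage sum reached 36.4 to 54.7 against 15.7 to 29 at 0 h, and the stellate cell sum 27.3 to 64.8 against 17.1 to 22.2. In each of these lists 1 of 7 measured markers passed at 24 h, Marco (2.89, adjusted p = 0.00944) and Dcn (1.56, adjusted p = 0.0334), and the medians over the lists were 0.26 and 0.12. The part of these cell types in the changes of the ultraconserved element probes was not tested.

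The number of ultraconserved element probes called well above background differed more between slides than between time points. It was 260, 334 and 304 on the 0 h arrays and 311, 570 and 543 on the 1.5 h arrays. On the 12 h arrays it was 637, 610 and 298, and on the 24 h arrays 369, 278 and 333. The 4 arrays with the most, 543 to 637, were those of slide 2. The means were 299 ± 37.2 (SD, n = 3) at 0 h and 475 ± 142 (SD, n = 3) at 1.5 h. They were 515 ± 188 (SD, n = 3) at 12 h and 327 ± 45.8 (SD, n = 3) at 24 h. None of the differences passed an exact two-sided permutation test (p = 0.2, 0.3 and 0.5 for the later times against 0 h in order, and 0.3 between 12 h and 24 h; 0.4, 0.4, 0.5 and 0.4 after Benjamini-Hochberg adjustment), where 3 arrays against 3 cannot go below 0.1.

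The signal needed for the call was lower on slide 2. The dimmest signal called well above background was 6.51 to 7.85 there, 15 to 22.1 on slides 1 and 3, and 72.3 on 24 h replicate 2. The median signal of the negative controls was 1.52 to 1.83 on slide 2, 3.38 to 5.38 on slides 1 and 3, and 16.8 on 24 h replicate 2. With 1 common level on the normalised scale (log2 of -4.28) in place of the scanner's call, 263, 268 and 263 probes exceeded it at 0 h and 270, 349 and 350 at 1.5 h. The counts were 379, 364 and 328 at 12 h, all above those at 0 h, and 288, 136 and 310 at 24 h. Compared with 0 h, the exact two-sided permutation p was 0.1 at 1.5 h and 12 h, the smallest possible, and 1 at 24 h. Between 12 h and 24 h it was 0.1. After adjustment the values of 0.1 became 0.133.

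**Figure D1:**
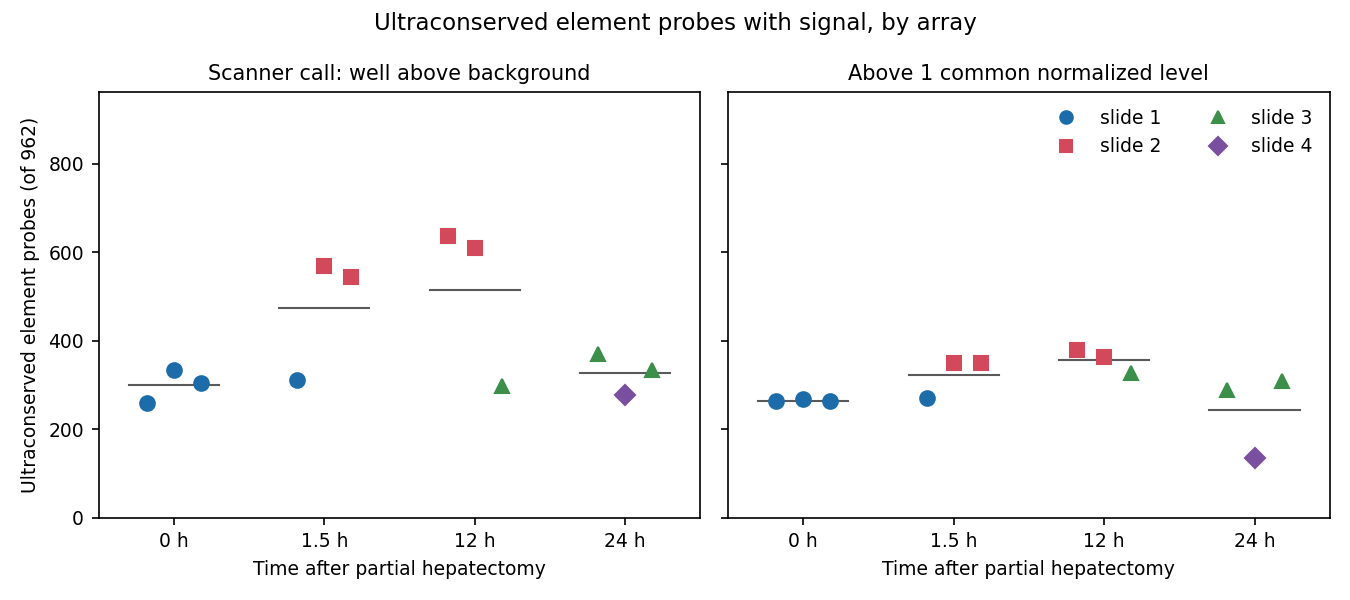
Number of the 962 ultraconserved element probes detected on each array, by time point, with the scanner's own call (first panel) and with 1 common level on the normalised scale (second panel). Each point is an array, its marker gives the slide, and bars are means of 3 arrays. By the scanner's call the 4 arrays of slide 2 lie at 543 to 637 and the others at 260 to 369, while at the common level the 12 h arrays (328 to 379) lie above the 0 h arrays (263 to 268).

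Of the 962 probes, 265 (27.5%) were well above background on no array and 197 (20.5%) on all 12. Of the 572 kept probes, 149 (26%) were detected on arrays of slide 2 alone, against 11% of the other noncoding probes kept. 120 were detected on exactly 4 arrays, and for 111 of them (92.5%) these were the 4 arrays of slide 2. 225 kept probes (39.3%) were detected on no 0 h array, and 1 on no 12 h array. At the limit of the rule, 44 probes had exactly 3 arrays, led in mean level by uc.39- (-5.81), uc.174- (-5.84) and uc.118- (-5.86), and 53 probes missed it with 2 arrays, led by uc.141+ (-5.87), uc.31+ (-5.89) and uc.197+ (-5.93).

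Most kept probes were dim. Their mean level over the arrays had a median of -4.34 with quartiles of -5.66 and -2.55, and 34 lay above the 75th percentile of the arrays. When the kept noncoding probes were cut into 10 classes of equal size by mean level, the dimmest class held 123 of the 572 probes and the brightest 23. The dimmest members by mean level were uc.459+ (-6.78), uc.290- (-6.71) and uc.56- (-6.68), each detected at 12 h on 2 of 3 arrays and at 0 h on none.

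The 6 members with the highest mean level were all minus strand probes. The brightest, uc.84-, had a mean level of 6.15, and its plus strand probe was well above background on no array. Its values were 6.36, 6.41 and 6.04 at 0 h, 5.80, 7.19 and 7.31 at 1.5 h, 7.41, 7.39 and 6.09 at 12 h, and 5.57, 2.45 and 5.80 at 24 h. The 4 highest values were those of slide 2, and each 24 h array lay below every 0 h array, by 1.66 ± 0.79 in log2 (SE, n = 3 per group; adjusted p = 0.26 in limma).

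The next were uc.340- (5.47), uc.371- (5.08), uc.162- (4.89), uc.460- (4.50) and uc.465- (3.57). The values of uc.162- were 4.49, 4.71 and 4.10 at 0 h, 4.60, 5.65 and 5.65 at 1.5 h, 6.04, 6.10 and 5.14 at 12 h, and 4.35, 2.75 and 5.14 at 24 h. Its 12 h arrays lay above the 0 h arrays, with a difference of 1.33 ± 0.56 and an adjusted p of 0.127. Among the 6 brightest, uc.460- alone passed the test at 12 h. It had 4.04, 3.98 and 3.49 at 0 h against 5.16, 5.32 and 4.87 at 12 h, a 2.43-fold rise (log2 1.28 ± 0.37, adjusted p = 0.0451). The fit dropped its signal on 24 h replicate 2, which the scanner had marked as an outlier.

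Because dim probes shifted as a class, each member's change was also read against the median change of the other noncoding probes of its own brightness class. At 12 h against 0 h the median log2 difference was 0.92 over the 572 members, 0.63 over the other noncoding probes, 0.24 over the coding probes and 0.42 over all 31168 probes tested. Relative to the brightness classes the members' median was 0.18, with 0.22, 0.20 and 0.16 on the 12 h arrays (SD 0.03), and 371 of 572 members (64.9%) lay above their class. At 1.5 h the medians were 0.60 for members and 0.34 for other noncoding probes, and the relative median 0.14, with 0.04 on the array of slide 1 and 0.20 and 0.21 on those of slide 2. At 24 h the relative median was -0.12, with 0.05 and 0.09 on replicates 1 and 3 and -0.42 on replicate 2, and it was 0.05 without replicate 2. At 24 h against 12 h it was -0.34, and -0.15 without 24 h replicate 2. The members' median thus lay above that of other noncoding probes of like brightness on every 12 h array, and at 24 h its sign changed when 24 h replicate 2 was left out.

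With slide as a fixed or a random block the relative median at 12 h was 0.06 and 0.07, and with normexp background correction 0.05. Within slides other pairs of times could be compared. On slide 1, 1.5 h replicate 1 differed from the 0 h arrays by 0.04, where all 1.5 h arrays gave 0.14. On slide 2 the 12 h arrays differed from the 1.5 h arrays by 0.04, a pair of times not fitted over all arrays. On slide 3 the 24 h arrays differed from 12 h replicate 3 by -0.11, with 218 of 572 members (38.1%) above their class. The value over all slides without 24 h replicate 2 was -0.15. Across slides, 12 h replicate 3 on slide 3 differed from the 0 h arrays on slide 1 by 0.16, with 343 members (60%) above their class.

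The shift was also present in bright probes. In the brightest class the 23 members had a median difference of 0.66 at 12 h against 0 h, where the other 1105 probes had 0.09. At 24 h against 12 h the medians were -1.25 and 0.04, and without 24 h replicate 2 they were -0.46 and 0.03, with 21 of the 23 members below 0 against 48.2% of the other probes. Over the 197 members detected on all 12 arrays, the relative medians of the differences from 0 h were 0.20, 0.24 and -0.08 in order of time, and that between 12 h and 24 h was -0.42. Without 24 h replicate 2 the last of these was -0.17, and the 24 h difference from 0 h had 0.03. The bright members were not compared by slide as a set. For the brightest, 12 h replicate 3 on slide 3 differed from the 0 h arrays unevenly. The differences were -0.18 for uc.84-, 0.75 for uc.340-, 0.13 for uc.371-, 0.71 for uc.162-, 1.03 for uc.460- and 0.10 for uc.465-.

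**Figure D2:**
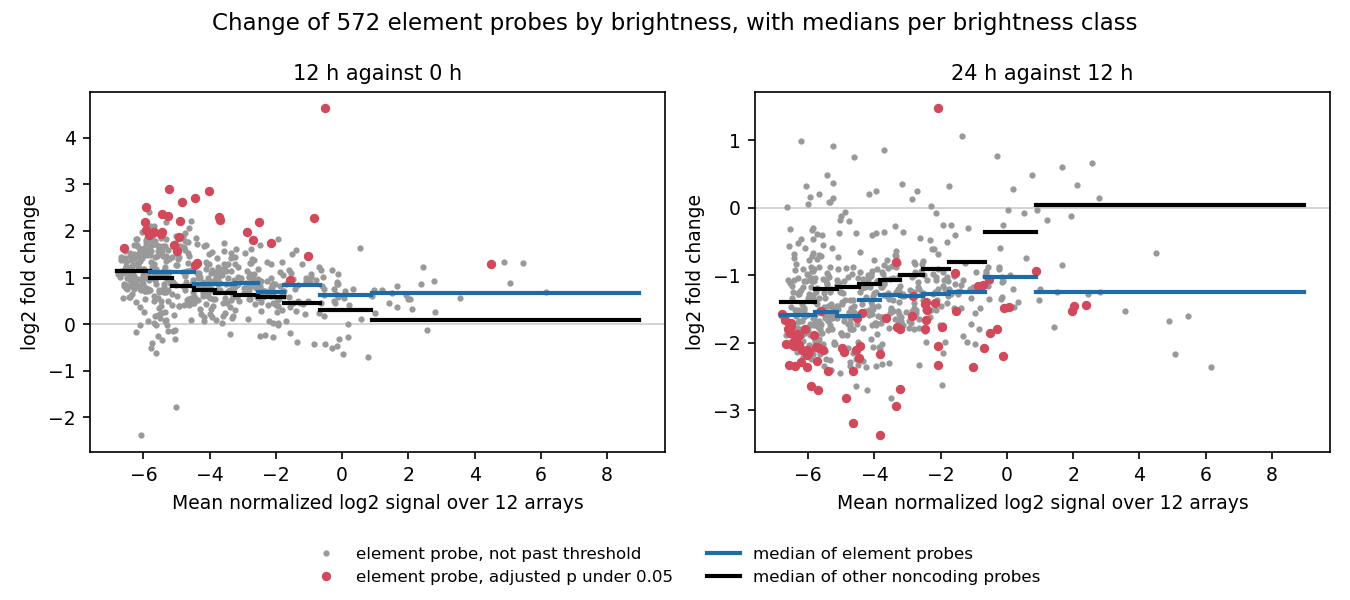
Median log2 difference in each of 10 brightness classes (class 1 the dimmest) for ultraconserved element probes and for the other noncoding probes, between 0 h and 12 h (first panel) and between 12 h and 24 h (second panel). In class 10 the 23 members have a median of 0.66 in the first panel, where the other probes have 0.09, and of -1.25 in the second, where they have 0.04.

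At 12 h, 31 members rose and none fell, each with an adjusted p under 0.05 in limma (Benjamini-Hochberg over all 31168 probes). That is 5.42% of the members, where 15.3% of all probes passed in either direction, 7.06% as higher and 8.26% as lower. Among other noncoding probes weighted to the members' brightness 6.9% were higher and 3.45% lower, so the share of members that rose lay near its background and no member fell. At an unadjusted p under 0.05 there were 140 of 572 members, against 10145 of all 31168 probes. The 31 comprised 14 plus and 17 minus strand probes. 7 were well above background on all 12 arrays, 7 on slide 2 alone, and 19 on no 0 h array. In each of the 31 every 12 h array lay above every 0 h array, 12 h replicate 3 on slide 3 included. Over all members 357 (62.4%) had 12 h arrays entirely above the 0 h arrays, where 47.7% of other noncoding probes and 40.7% of all probes did, and 8 (1.4%) entirely below, where 12.4% and 20.8% did.

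The count depended on single arrays. It was 300 (297 higher, 3 lower) without 24 h replicate 2, when 49.2% of all probes passed and 41.4% of other noncoding probes of like brightness were higher, with the 31 still among them. It was 11, 10 and 13 without 0 h replicates 1, 2 and 3, and 9 and 11 without 12 h replicates 1 and 2. With slide as a fixed or a random block (arrays of 1 slide correlated at 0.85) it fell to 8 and 7, and with normexp background correction to 1.

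The largest rise was that of uc.462-. Its values were -3.01, -2.53 and -2.80 at 0 h, -1.35, -1.45 and -0.63 at 1.5 h, 1.75, 1.55 and 2.25 at 12 h, and 0.69, -1.41 and 0.70 at 24 h. The groups at 0 h, 1.5 h and 12 h did not overlap, each lying above the one before, and the 24 h arrays lay between those of 0 h and 12 h. At 12 h it was 24.7-fold above 0 h (log2 4.63 ± 0.51, SE, n = 3 per group; adjusted p = 0.000359), which was 4.32 above its brightness class. It passed in 25 of 26 alternative settings, with differences of 3.23 to 5.03 and adjusted p of 4e-06 to 0.095. The exception left out the 4 arrays of slide 2, where the difference was 5.03 on the remaining 12 h array. At 24 h it was still 6.85-fold above 0 h (2.78 ± 0.51, adjusted p = 0.0132), and below 12 h by 1.85 ± 0.51 in log2 (adjusted p = 0.0426). At 1.5 h the difference was 1.64 ± 0.51 with an adjusted p of 0.634. The plus strand probe of the same element was also detected on all 12 arrays and differed by 0.69 at 12 h (adjusted p = 0.441).

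A minus strand probe of an element that has been linked to Wnt signalling in liver cancer was measured on all 12 arrays. Its values, shown in the last panel of the plot of probes that rose at 12 h, were -3.78, -3.37 and -3.40 at 0 h, -3.20, -2.61 and -2.71 at 1.5 h, -1.40, -1.43 and -1.14 at 12 h, and -1.52, -3.65 and -1.79 at 24 h. The 12 h arrays were alike across slides 2 and 3 and lay above every 0 h and 1.5 h array, and 24 h replicate 2 lay with the 0 h arrays. The rise at 12 h was 4.57-fold (2.19 ± 0.47, adjusted p = 0.011), and the test was passed in 23 of 26 alternative settings (adjusted p 8.1e-05 to 0.43). At 24 h the difference was 1.20 ± 0.47 (adjusted p = 0.175), and with 24 h replicate 2 left out it passed (adjusted p = 0.00138).

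Several of the larger rises at 12 h started from probes that no 0 h array had detected, so their folds are given as bounds. A bound is the 12 h mean over the 0 h mean, with each 0 h array raised to its own lowest level called well above background. Bounds for other times were formed alike. These bounds are not strict. The mean of the brighter time takes in any arrays that did not detect the probe. The lowest level was taken over all probes of an array, and some probes above it were not called. On 0 h replicate 1 that level was -4.50, and uc.419- had -4.34 without being called. uc.334+ had -6.74, -5.27 and -5.04 at 0 h and -2.61, -2.68 and -3.67 at 12 h, at least 3.61-fold higher (fitted log2 difference 2.70 ± 0.53, adjusted p = 0.00711). uc.458+ had -5.30, -4.91 and -5.61 at 0 h and -3.33, -1.47 and -2.47 at 12 h, at least 5.09-fold higher (adjusted p = 0.0212). uc.303- had -6.54, -6.81 and -5.88 at 0 h and -3.52, -3.28 and -3.76 at 12 h, at least 2.50-fold higher (adjusted p = 0.0261). All 3 were detected on each 12 h array, the one on slide 3 included. uc.232- was at least 2.38-fold higher (adjusted p = 0.0206) and uc.198+ at least 1.18-fold (adjusted p = 0.0226), both detected at 12 h only on the 2 arrays of slide 2.

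uc.82 was the element with both strands called at 12 h. uc.82- had -1.94, -1.55 and -2.05 at 0 h, 0.57, 0.92 and -0.21 at 12 h and -0.60, -3.21 and -0.27 at 24 h, a 4.83-fold rise at 12 h (2.27 ± 0.67, adjusted p = 0.0428) that passed in 12 of 26 alternative settings (adjusted p 0.000552 to 0.647). uc.82+ had -4.82, -5.22 and -4.93 at 0 h, undetected, and -3.48, -3.24 and -4.28 at 12 h, at least 2.26-fold higher (adjusted p = 0.0499). At 12 h it was detected only on the arrays of slide 2. The smallest of the rises was that of uc.193-, from -2.18, -1.90 and -1.66 at 0 h to -0.76, -1.27 and -0.88 at 12 h, or 1.93-fold (0.95 ± 0.27, adjusted p = 0.0361). The others at the lower end were uc.430- at least 1.98-fold (adjusted p = 0.04), uc.353+ 2.77-fold (adjusted p = 0.0366) and uc.199+ at least 1.80-fold (adjusted p = 0.0331). Both uc.430- and uc.199+ were detected at 12 h only on the arrays of slide 2.

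**Figure D3:**
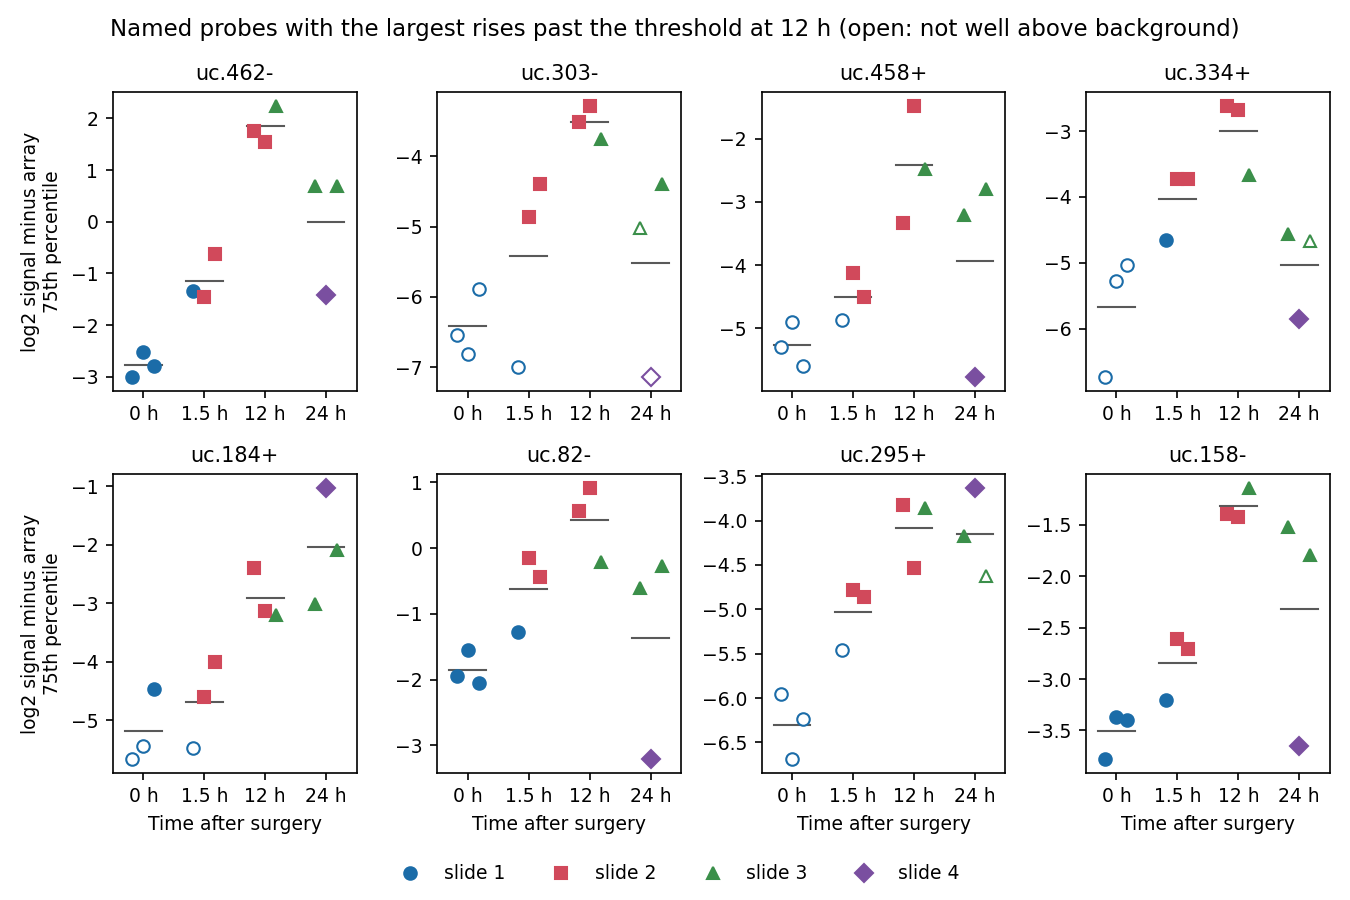
Levels of 8 ultraconserved element probes by time point, those with the largest rises at 12 h among the named probes that passed the test and were detected on all 12 h arrays, in log2 relative to the array's 75th percentile. Each point is an array, its marker gives the slide, open symbols were not well above background, and bars are means of 3 arrays. uc.462- climbs from -3.01 to -2.53 at 0 h to 1.55 to 2.25 at 12 h, and uc.184+ and uc.295+ have 24 h means within 1 log2 unit of their 12 h means.

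At 1.5 h no member passed the test in limma, where 7 of all probes did (0.0225%). 44 of 572 members had an unadjusted p under 0.05, against 2001 of all 31168 probes. Only 3 members passed when 24 h replicate 2 was left out, when 0.594% of all probes did. 143 members (25%) had 1.5 h arrays entirely above the 0 h arrays, against 19% of other noncoding probes and 16.4% of all probes. None of the 3 probes with the smallest p was detected on a 0 h array. The smallest p belonged to uc.198+, which had -6.81, -7.43 and -7.13 at 0 h and -5.53, -4.44 and -4.26 at 1.5 h (at least 1.07-fold higher, unadjusted p = 0.00311, adjusted p = 0.511). It was detected at 1.5 h on the 2 arrays of slide 2 and not on that of slide 1. uc.148+ (at least 1.06-fold higher, adjusted p = 0.514) and uc.213- (adjusted p = 0.535, with no fold above the detection limit) followed, detected at 1.5 h on the same arrays.

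At 24 h against 0 h, 5 members rose and 10 fell (2.62% of the members, where 5.46% of all probes and 4.51% of other noncoding probes of like brightness passed). Of all probes 2.84% were higher and 2.62% lower. 74 of 572 members had an unadjusted p under 0.05, against 6547 of all 31168 probes. The groups of all 15 did not overlap, and over all members 25 (4.37%) lay entirely above and 62 (10.8%) entirely below the 0 h arrays, against 13.2% and 13.8% of all probes. This comparison shares its 0 h arrays with the one above. Without 24 h replicate 2 the count was 91, of which 74 were higher and 17 lower, the 15 among them, and 17% of all probes passed. The count was 2, 3 and 6 without 0 h replicates 1, 2 and 3. It was 9 and 8 without 1.5 h replicates 2 and 3, and 9 without 12 h replicate 2. With slide as a fixed or a random block 1 member passed, and with normexp none did.

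The 5 that rose at 24 h were uc.462-, uc.184+, uc.295+, uc.418- and uc.419-. uc.184, an element within the gene for the RNA-binding protein Cpeb4, had plus strand values of -5.67, -5.44 and -4.47 at 0 h, -5.47, -4.61 and -4.00 at 1.5 h, -2.39, -3.13 and -3.20 at 12 h, and -3.01, -1.02 and -2.09 at 24 h. All arrays of 12 h and 24 h lay above those of 0 h and 1.5 h, and it was detected on 1 of the 3 arrays at 0 h. The difference from 0 h was 2.29 ± 0.55 at 12 h (4.88-fold, adjusted p = 0.0183) and 3.15 ± 0.55 at 24 h (8.89-fold, adjusted p = 0.0101; 0.00417 to 0.493 over 24 alternative settings, 18 of which passed). The coding probe of Cpeb4 was well above background on no 0 h array and was at least 4.07-fold higher at 12 h (adjusted p = 0.0347). At 24 h its difference from 0 h was 0.30 (adjusted p = 0.835) and from 12 h -2.28 (adjusted p = 0.0559), whereas uc.184+ had its highest mean at 24 h. On 24 h replicate 2 Cpeb4 had -7.16, against -4.42 and -3.72 on the other 24 h arrays. Each of these lay below its 12 h arrays (-2.76, -2.93 and -2.77). Without 24 h replicate 2, 17% of all probes passed at 24 h, Cpeb4 among them as higher than at 0 h (adjusted p = 0.0387). Its adjusted p between 12 h and 24 h was then 0.05. uc.184+ then differed from 12 h by 0.35 (adjusted p = 0.626).

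uc.295+ was undetected at 0 h with -5.96, -6.69 and -6.24, and had -5.46, -4.78 and -4.86 at 1.5 h, -3.83, -4.53 and -3.86 at 12 h and -4.17, -3.63 and -4.63 at 24 h. It was at least 1.70-fold higher at 12 h (adjusted p = 0.00214) and at least 1.62-fold higher at 24 h (adjusted p = 0.00735). Its minus strand probe was well above background on no array. uc.418- had -3.59, -2.91 and -2.40 at 0 h, -2.90, -3.41 and -3.04 at 1.5 h, -1.06, -1.45 and -1.14 at 12 h and -2.04, -0.55 and -1.30 at 24 h, 3.37-fold higher at 12 h (adjusted p = 0.0154) and 3.18-fold at 24 h (adjusted p = 0.038). uc.419- was 3.96-fold higher at 12 h (adjusted p = 0.031) and 4.34-fold at 24 h (adjusted p = 0.0448). Neither uc.418- nor uc.419- was above 0 h at 1.5 h, where the differences were -0.15 and -0.27 with adjusted p of 0.921 and 0.889.

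Of the members that fell at 24 h, uc.125- had -2.86, -3.30 and -3.37 at 0 h, -3.24, -2.19 and -2.20 at 1.5 h, -2.65, -2.76 and -3.86 at 12 h, and -5.63, -8.69 and -5.05 at 24 h. It was detected on all 9 earlier arrays and on no 24 h array, and was at least 4.68-fold lower at 24 h than at 0 h (fitted difference -3.28 ± 0.78, adjusted p = 0.0357). uc.135+ had -4.12, -4.19 and -4.45 at 0 h and -5.74, -8.24 and -6.77 at 24 h, at least 2.22-fold lower (adjusted p = 0.0235), and it too was detected on no 24 h array.

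uc.286- was detected on all arrays and had -1.47, -1.82 and -1.53 at 0 h, -1.94, -1.04 and -0.89 at 1.5 h, -1.39, -1.49 and -1.85 at 12 h and -3.46, -5.27 and -2.98 at 24 h. Every 24 h array lay below every earlier array, and the level was 4.91-fold lower than at 0 h (-2.30 ± 0.52, adjusted p = 0.0291; passed in 18 of 26 alternative settings, 0.00168 to 0.249). uc.455- had 1.07, 0.22 and 0.14 at 0 h and -1.39, -1.01 and -1.57 at 24 h, 3.49-fold lower (-1.80 ± 0.40, adjusted p = 0.0291), and for it 24 h replicate 2 was the highest of the 3 arrays. uc.1+, detected at 0 h on 1 of 3 arrays, was at least 1.20-fold lower (adjusted p = 0.0266), and uc.129+ 2.22-fold lower (-1.15 ± 0.28, adjusted p = 0.0385). uc.66- passed as well (adjusted p = 0.0147), but neither its 0 h nor its 24 h arrays were well above background.

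**Figure D4:**
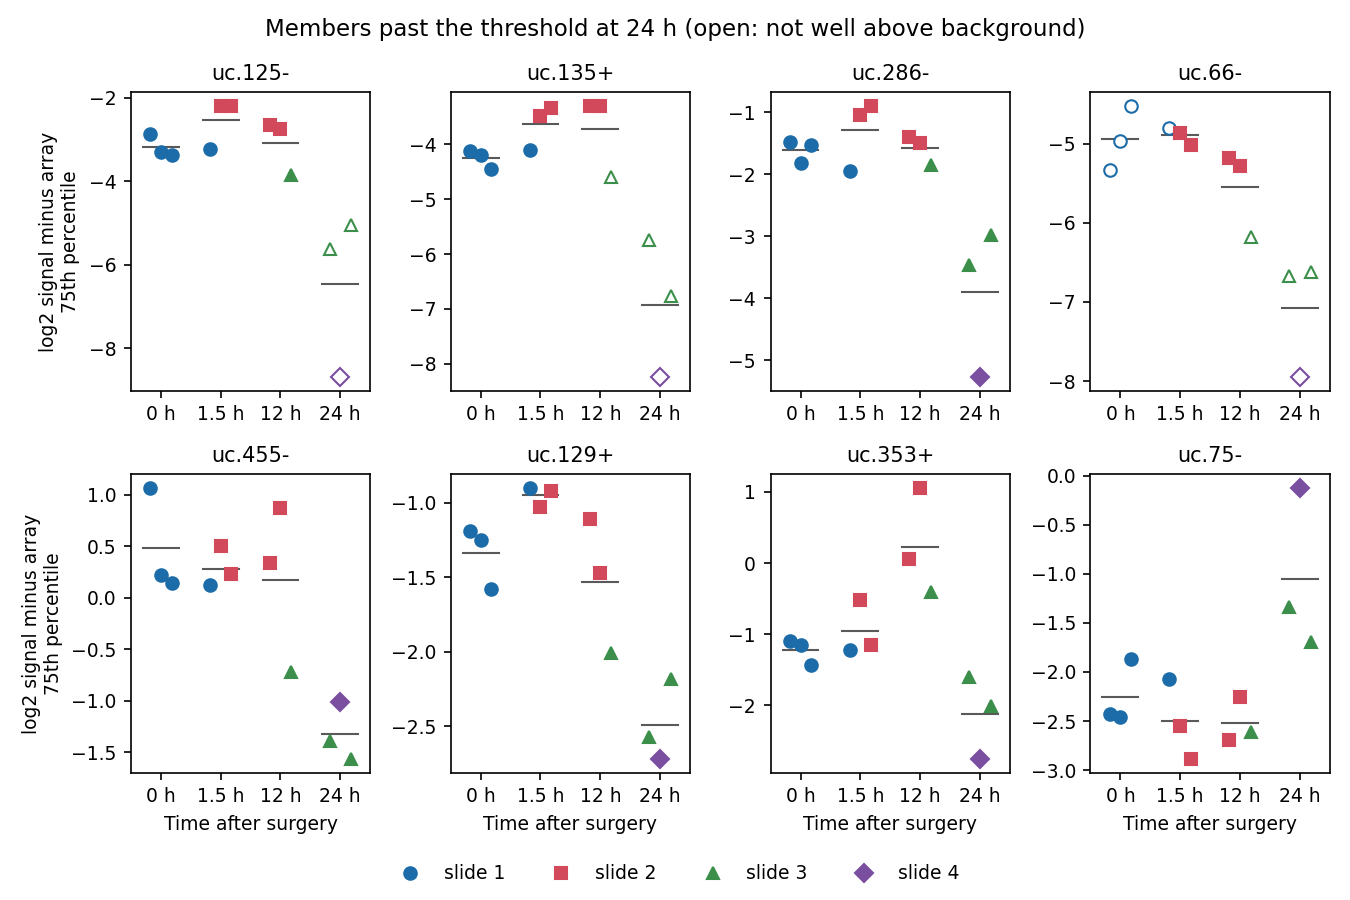
Levels of 8 ultraconserved element probes past the threshold at 24 h (6 called lower against both 0 h and 12 h, uc.353+ with the smallest p between 12 h and 24 h, and uc.75-, the one called higher there), by time point, on the same scale and with the same symbols as the plot of probes that rose at 12 h. uc.125- and uc.135+ are not well above background on any 24 h array, the 24 h arrays of uc.286- (-5.27 to -2.98) lie below all its earlier arrays, and uc.75- is highest at 24 h (-1.69 to -0.12).

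Between 12 h and 24 h, 82 members fell and 1 rose (14.5% of the members). 13% of all probes passed, 6.26% as higher and 6.78% as lower, and among other noncoding probes of like brightness 10.1% were lower and 2.19% higher. With each array centred on its brightness classes the count was 28 lower and 7 higher, and 13.9% of all probes passed. 299 of 572 members had an unadjusted p under 0.05, against 12597 of all 31168 probes. 30 of the 83 were detected on all 12 arrays, 37 on slide 2 alone, and 44 on no array of the dimmer time point. The 2 time points did not overlap in 82 of the 83, and over all members 286 (50%) had 24 h arrays entirely below the 12 h arrays, against 35.8% of other noncoding probes and 27.2% of all probes. On slide 3, which held both times, 376 of all 572 members (65.7%) and 53.8% of other noncoding probes had both 24 h arrays below 12 h replicate 3. The comparison shares arrays with both comparisons above.

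The count was 53 (1 higher, 52 lower) without 24 h replicate 2, when 15.8% of all probes passed, and 43 of the 83 were among them. It was 1 and 4 without 12 h replicates 1 and 2, and without 24 h replicate 3 there were 281 lower and 2 higher. It was 19, 19 and 21 without 0 h replicates 1, 2 and 3, and 26 and 24 without 1.5 h replicates 2 and 3. With slide as a fixed block 25 were lower and 4 higher, with it as a random block 35 and 2, and with normexp none passed.

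uc.353+ was measured on all arrays, with -1.10, -1.16 and -1.44 at 0 h, -1.22, -0.52 and -1.16 at 1.5 h, 0.06, 1.06 and -0.41 at 12 h, and -1.61, -2.76 and -2.01 at 24 h. It was highest at 12 h and lower at 24 h than at 0 h on every array, and fell 5.14-fold from 12 h to 24 h (-2.36 ± 0.41, adjusted p = 0.0105; passed in 22 of 26 alternative settings, 0.0023 to 0.526). Within slide 3 its difference was -1.40. uc.125- was at least 4.97-fold lower at 24 h than at 12 h (adjusted p = 0.0268) and uc.135+ at least 3.19-fold (adjusted p = 0.0109). At 12 h uc.135+ was detected only on the arrays of slide 2. uc.336- was 7.68-fold lower (-2.94 ± 0.66, adjusted p = 0.0242), detected on 1 of the 3 arrays at 24 h.

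The other large falls were those of uc.442-, at least 3.65-fold (adjusted p = 0.0316), uc.86-, at least 1.76-fold (adjusted p = 0.0191), and uc.21-, 6.42-fold (adjusted p = 0.0449). uc.86- was detected on the arrays of slide 2 alone and so was kept only through them. The smaller falls included uc.325- (-1.06, adjusted p = 0.0451), uc.371+ (-1.14, adjusted p = 0.0487) and uc.359- (-0.80 ± 0.23, adjusted p = 0.0473). Relative to its brightness class uc.359- was 0.27 higher at 24 h, and it passed in 4 of 26 alternative settings. The member that rose was uc.75-, with -2.43, -2.46 and -1.87 at 0 h, -2.69, -2.26 and -2.61 at 12 h and -1.34, -0.12 and -1.69 at 24 h. It was 2.76-fold higher at 24 h than at 12 h (1.47 ± 0.40, adjusted p = 0.0413), in a test that it passed in 12 of 26 alternative settings (0.0118 to 0.671).

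Both probes were kept for 176 of 481 elements (36.6%), the plus probe alone for 100, the minus probe alone for 120 and neither for 85. Plus probes were kept about as often (276, 57.4%) as minus probes (296, 61.5%). Each strand has a probe of its own, so the signals of the strands were not set against each other, and changes over time were compared instead. Across the 176 pairs, which share the same 12 arrays, the differences from 0 h relative to brightness class had a Pearson r between plus and minus probes of 0.10, 0.09 and 0.06 in order of time, and those between 12 h and 24 h had 0.19. They had the same sign in 96 (54.5%), 103 (58.5%) and 91 (51.7%) pairs against 0 h in order of time, and in 116 (65.9%) at 24 h against 12 h. An even split is not the background for these shares. Of all members 64.9% lay above their class at 12 h, and 29.4% at 24 h against 12 h.

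In uc.427 the minus strand probe, detected on no 0 h array, was called at 12 h, at least 1.44-fold higher (adjusted p = 0.00674). At 12 h it was detected only on slide 2. The plus strand probe differed by 0.81 ± 0.39 (adjusted p = 0.168). At 12 h 1 pair had both strands called and 18 had 1 strand called. At 24 h against 12 h these were 3 and 39, and the 3 were uc.310, uc.350 and uc.87.

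In these 3 elements both strands passed as lower at 24 h than at 12 h. uc.310- differed by -0.93 (adjusted p = 0.0499). uc.310+ was detected on no 24 h array and at 12 h only on slide 2. Its fall (adjusted p = 0.0402) has no fold, since its 12 h mean did not exceed the mean of the lowest levels called well above background at 24 h. Relative to its brightness class it differed by -0.30. uc.350+ differed by -2.05 (adjusted p = 0.0475), and uc.350-, detected on the arrays of slide 2 alone, was at least 1.38-fold lower (adjusted p = 0.0439). uc.87- was at least 2.76-fold lower (adjusted p = 0.0295), and at 12 h was detected only on slide 2. uc.87+ passed (adjusted p = 0.0301) but has no fold either, for the same reason as uc.310+. It was detected on no 24 h array and at 12 h only on slide 2. The difference between the strands of an element was not tested.

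**Figure D5:**
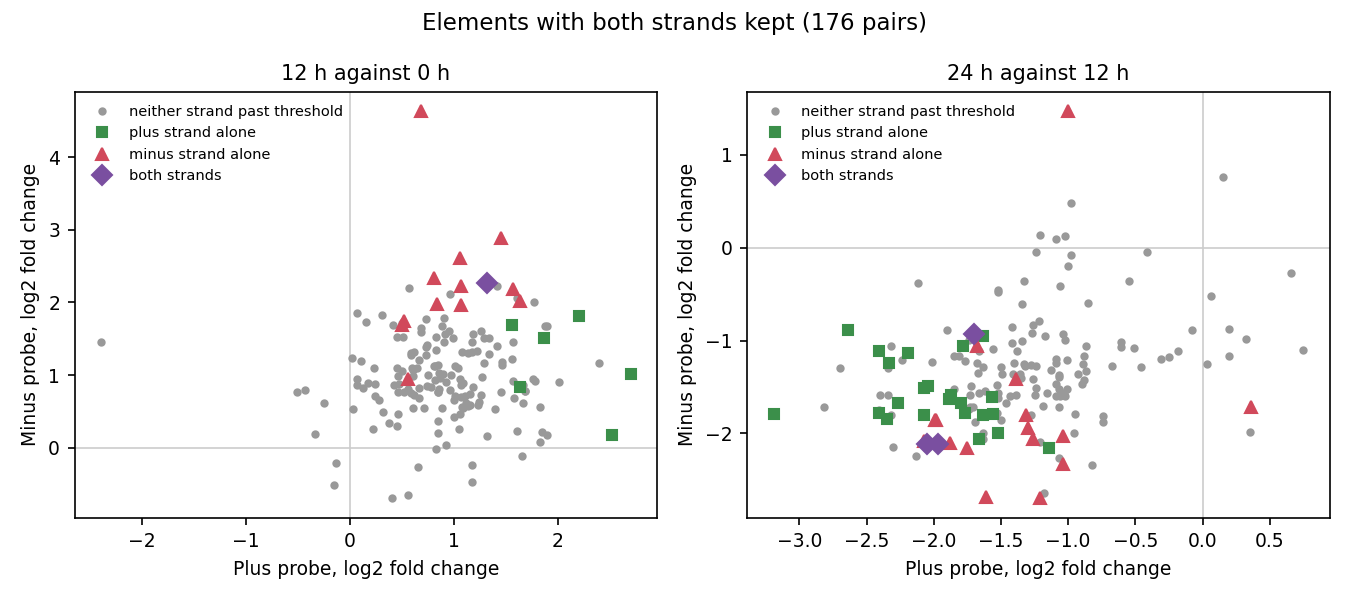
Plus against minus strand probes of the 176 elements with both kept, each point 1 element. Axes are log2 differences, between 0 h and 12 h in the first panel, where uc.462 has 4.63 on the minus strand and 0.69 on the plus strand, and between 12 h and 24 h in the second, where uc.75- stands alone as higher (1.47).

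None of the other probes known from published work passed the test at 12 h with all 12 arrays. Some did without 24 h replicate 2, when 49.2% of all probes passed, as given below. One lies in the gene for the RNA-binding protein Pcbp2, and its transcript is raised in human liver cancer. Its plus strand probe had -2.06, -2.07 and -2.22 at 0 h and -1.82, -1.72 and -1.44 at 12 h, and each 12 h array lay above the 0 h arrays, with a difference of 0.46 ± 0.41 (adjusted p = 0.433) that was -0.13 relative to its brightness class. Its minus strand probe differed by 0.99 ± 0.78 (adjusted p = 0.373). The brightest coding probe of Pcbp2 differed by 0.13 ± 0.27 at 12 h (adjusted p = 0.734) and fell between 12 h and 24 h by 0.99 ± 0.27 in log2 (adjusted p = 0.0416).

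Of 3 elements whose plus strand transcripts are silenced by DNA methylation in human tumours, uc.160+ was well above background on no array, and uc.160- differed by 1.00 ± 0.65 at 12 h (adjusted p = 0.294). The plus strand probe of another, whose transcript affects the processing of a microRNA precursor, was among the dimmest members (mean -6.62) and differed by 0.57 ± 0.57 (adjusted p = 0.474). Its minus strand probe was at least 1.80-fold higher (adjusted p = 0.135). Neither was detected on a 0 h array. The remaining element differed by 1.56 ± 1.00 on the plus strand (adjusted p = 0.287), with no 0 h array detected, and by 1.22 ± 0.60 on the minus strand (adjusted p = 0.181).

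The plus strand probe of the element linked to Wnt signalling was undetected at 0 h and differed by 1.57 ± 0.87 at 12 h (adjusted p = 0.224). uc.73+ differed by 0.90 ± 0.76 (adjusted p = 0.406). The minus strand probe of an element with a role in renewal of the intestinal lining lay on the other side of its 0 h arrays. It had -3.65, -4.55 and -3.55 at 0 h and -5.22, -5.68 and -6.17 at 12 h, every 12 h array below the 0 h arrays, with a difference of -1.77 ± 0.64 and an adjusted p of 0.086. uc.73- (2 arrays), the plus strand probe of the element of the intestinal lining (1 array) and both strands of a further element from published work (0 and 1 arrays) were not kept. Without 24 h replicate 2 the minus strand probes of the elements in Pcbp2 (adjusted p = 0.0114), of the microRNA precursor (0.0286) and of the intestinal lining (0.0089) passed at 12 h. So did uc.160- (0.019), the plus strand probe linked to Wnt signalling (0.0315) and both probes of the remaining element (0.02 and 0.0128). uc.73+ (0.053) and the plus strand probes of the elements in Pcbp2 (0.0797) and of the microRNA precursor (0.186) did not.

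Genes of the kind that hold or neighbour ultraconserved elements were read from their coding probes. No match between single elements and genes was made from the files, since they give no positions for the elements. Of 38 genes for splicing and RNA-binding proteins known to hold ultraconserved sequence, 37 were measured. None passed at 1.5 h. At 12 h 2 rose and 1 fell, with a median difference of 0.09 against 0.24 for all coding probes, of which 7.38% were higher and 10.2% lower. The 2 were Hnrnpa2b1, a nuclear RNA-binding protein (1.02 ± 0.31, adjusted p = 0.0468), and Cpeb4, and the one that fell was Tial1, a regulator of splicing and translation (-2.03 ± 0.52, adjusted p = 0.0254). At 24 h Hnrnpa2b1 alone passed (1.51, adjusted p = 0.0194). Between 12 h and 24 h Ptbp1, a splicing repressor, rose (0.88, adjusted p = 0.0488) and Pcbp2 and Hnrnpd (-0.85, adjusted p = 0.0379) fell. Without 24 h replicate 2, 5 rose and 4 fell at 12 h, 3 rose and 5 fell at 24 h, and 6 fell between 12 h and 24 h. Of all probes 49.2%, 17% and 15.8% then passed, in the same order.

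Of 42 genes for developmental transcription factors, 40 were measured and none passed at 1.5 h. At 12 h 6 rose and 6 fell (15% each, where 7.38% of coding probes were higher and 10.2% lower), with a median of 0.12. Without 24 h replicate 2 there were 11 and 11, when 49.2% of all probes passed. With all arrays those that rose included Lmo4, a LIM domain cofactor (1.89 ± 0.29, adjusted p = 0.00208), and Mab21l1, detected on no 0 h array and at least 2.06-fold higher (adjusted p = 0.00435). Those that fell included Nfib (-1.49, adjusted p = 0.00237), Foxp1 (-1.60, adjusted p = 0.00875) and Zfp503 (-1.72, adjusted p = 0.0182). At 24 h none passed with all arrays, and 3 rose and 3 fell without 24 h replicate 2, when 17% of all probes passed. Between 12 h and 24 h 3 rose, among them Nfib (0.99, adjusted p = 0.0291), and 4 fell, among them Lmo4 (-1.59, adjusted p = 0.0129). These are 7.5% and 10% of the list, where 7.94% of coding probes were higher and 5.5% lower. At 12 h the medians of both gene lists lay below that of all coding probes.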

How the data were processed

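Liver RNA of 12 samples was hybridised to a lncRNA array with 1 colour. Spots were read with Agilent Feature Extraction 10.5.1.1, per the submitters' processing notes, and the array design names mouse build mm9, per the file headers. The deposited intensity per spot is background-subtracted by that software, per the file headers, and its flags (other values, 0 or 1) mark outliers and spots well above background. The authors also deposited log2 values for 20271 probes with unstated normalization, used as an alternative. They hold 197 ultraconserved element probes, the 197 detected on all 12 arrays.

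Of 39448 spots per array, controls, 20 negative probes of the design and outlier spots (4 member signals) were left out, and spots of 1 probe were averaged. Values were log2 intensity minus the array's 75th percentile. 31168 of 37246 probes were well above background on at least 3 arrays. One limma 3.58.1 model (R 4.3.3) with 4 time points was fitted to all 12 arrays, with empirical Bayes moderation and Benjamini-Hochberg adjustment over all 31168 probes (threshold 0.05). The model was run on simulated data with independent noise on each array. These held no slides and no deviant array, so that run cannot judge the model in their presence. The number of arrays limits the precision. Coding genes are read from the brightest probe, named through the RefSeq table of GRCm38.p6. No sequences or coordinates of the elements were used here.

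Named probes were those past the threshold in a contrast (where more than 12 passed, the 6 highest and 6 lowest differences without overlap), the 3 smallest p where none passed, the 6 brightest and 3 dimmest, those next to the detection limit, pairs of strands with both called or with the largest signal differences (described by their changes only, since signals of different probes are not comparable), and elements of published work. Members, lists and rules were chosen with earlier results of these data known. Alternatives changed background correction, normalization, dim-probe filter, moderation, slide or replicate block, groups fitted and arrays left out. Replicate numbers were not taken as pairs. The 18 correlations of same-numbered arrays' deviations from their time point's mean ran from -0.42 to 0.41, and 2 exceeded 0.1. For differently numbered arrays 36 ran from -0.49 to 0.51, and 11 exceeded 0.1. Slides and 24 h replicate 2 enter these values, so they cannot exclude a pairing.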

Additional observations from a re-analysis of the deposited data

How the results depend on the processing

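In each case below the cause was not tested. The share of all probes called also changed with the setting. At 12 h it was 15.3% in the main fit, 49.2% without 24 h replicate 2, 13.9% with brightness classes centred and 34.5% with both. At 24 h it was 5.46%, 17%, 5.67% and 16.7% in the same order, and between 12 h and 24 h 13%, 15.8%, 13.9% and 16.7%. For the other settings it is not given, so their counts do not describe the members alone. Counts of members past the threshold at 12 h (31) were 1 with normexp, 47 with quantile, 17 with cyclic loess (15 higher, 2 lower), 17 among probes on all 12 arrays, 8 and 7 with slide as a fixed and a random block, 316 with only the 2 groups fitted, 18 with brightness classes centred (17 higher, 1 lower), 102 with that and without 24 h replicate 2 (82 higher, 20 lower), and 0 without slide 2. At 24 h (15) they were 0 with normexp, 42 with quantile (17 higher, 25 lower), 42 with cyclic loess, 1 with either slide block, 0 with only the 2 groups, 32 with classes centred (13 higher, 19 lower), 89 with that and without 24 h replicate 2 (51 higher, 38 lower), and 0 without slide 2. Between 12 h and 24 h (82 lower, 1 higher) the lower and higher counts were 0 and 0 with normexp, with only the 2 groups fitted and without slide 2, 70 and 4 with quantile, 43 and 3 with cyclic loess, 65 and 3 with the authors' values, 42 and 0 with no filter, 25 and 4 with slide as a fixed block, 35 and 2 with it as a random block, 28 and 7 with classes centred, and 33 and 9 with that and without 24 h replicate 2. At 1.5 h (0) the count was 3 with classes centred and without 24 h replicate 2. With the replicate number as a block the counts were 0, 21 and 8 for the times against 0 h in order, and 10 lower and 0 higher between 12 h and 24 h, though the samples share only a number. Leaving out 1 array gave 0 to 3, 9 to 300 and 2 to 91 against 0 h, and 1 to 281 lower and 0 to 2 higher between 12 h and 24 h.

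The relative median at 12 h (0.18) was 0.05 with normexp, 0.26 with the authors' values, 0.12 with no filter, 0.23 on all 12 arrays, and 0.06 and 0.07 with slide as a fixed and a random block. Leaving out 1 array moved the relative medians against 0 h to 0.10 to 0.21, 0.16 to 0.23 and -0.22 to 0.05 in order of time, and that between 12 h and 24 h to -0.45 to -0.15. At the common level the count of detected probes at 24 h differed from 0 h by -20, and by 27.3 with the scanner's call.

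Single probes that changed sign were uc.148+ (-0.08) and uc.213- (-0.40) at 1.5 h and the minus strand probe of the element of the intestinal lining (0.25) at 12 h with normexp, and uc.295+ at 24 h (-0.83) with normexp. At 12 h with slide as a fixed and a random block they were the plus strand probes of the elements linked to Wnt signalling (-0.50, -0.39) and to the microRNA precursor (-0.43, -0.44), of the element in Pcbp2 (-0.18, -0.15) and of the remaining element silenced in tumours (-0.23, -0.15). That linked to the microRNA precursor also had -0.63 with cyclic loess and -0.66 with classes centred, that in Pcbp2 had -0.05 with classes centred, and uc.359- had 0.24 at 24 h against 12 h with classes centred. Over the named probes, 1070 values kept direction and call, 725 lost the call, 15 gained it and 18 changed sign. Dim members limit precision: 225 had no 0 h array above background.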
